A study of Mus musculus with 20 samples.

Results

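Capillary endothelial cells (ECs) of interscapular brown adipose tissue (iBAT) are described here: the cells that line the smallest vessels between brown adipocytes. They were selected on their own read-outs, so the values that picked them are given as a description. A cell qualified in a lineage-negative (Lin-) library when it had under 10% mitochondrial counts, a total under 15000 and at least 500 genes. Pecam1, Cdh5 and Kdr had to sum to at least 2 and Car4, Gpihbp1, Cd300lg and Aplnr to at least 3. The arterial genes Stmn2, Sema3g, Gja5, Alox12 and Gkn3 had to sum to under 2, the venous genes Ackr1, Selp and Sele to under 1, and the stromal and leukocyte genes Pdgfra and Ptprc to under 1. This gave 4060 capillary cells among 60538 kept Lin- cells and among 7226 endothelial cells. Of these, 3666 came from the 6 libraries of C57BL/6J mice.

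Each library was a droplet-based single-cell RNA library of stromal vascular cells from pooled iBAT of 3 to 4 mice aged 8 to 14 weeks, after magnetic depletion of cells with immune lineage markers. Male C57BL/6J mice stayed at 24 °C as room temperature controls (RT), were housed at 6 °C for 4 days (COLD), or were infused with the beta3-adrenergic agonist CL316,243 at 0.75 nmol per hour for 4 days (CL), with 2 Lin- libraries per group. Female mice of a second line all carried Adrb1 fl/fl and were all given tamoxifen. They were controls without the recombinase (WT) or carried Pdgfra-CreERT2 +/- (KO), and each genotype gave 1 RT and 1 COLD library. Pdgfra-CreERT2 acts in Pdgfra-expressing stromal cells, so the deletion was not directed at the endothelium. The WT RT and KO RT libraries were made with version 3 of the chemistry and all other libraries with version 2, so kit and temperature cannot be told apart within the Adrb1 line.

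Brown fat is densely supplied with capillaries, which deliver oxygen, glucose and lipid and carry heat away. Capillary ECs of fat present GPIHBP1, which holds lipoprotein lipase on the luminal surface, and carry fatty acid handling proteins such as CD36 and FABP4. The vascular bed of iBAT grows and remodels when sympathetic activity rises in the cold.

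Capillary cells per library ranged from 51 (KO COLD) to 1542 (CL replicate 1), with summed counts of 121730 to 2431758 and median totals of 992 to 2363 counts per cell. RT replicate 2 stood apart before any comparison: it held 22072 barcodes, the highest number of any Lin- library, had the lowest median total, and its sums over lists of matrix, sprouting and immediate early genes were low. The sum over 24 basement membrane and matrix genes was 3897 CPM (counts scaled to the same total, 1000000, in the summed capillary cells of each library) there against 8634 CPM in RT replicate 1, and the sum over 20 immediate early and heat shock genes was 11012 against 24466 CPM. KO COLD stood apart as well, with 10 of its 51 capillary cells carrying at least 3 counts of lymphatic genes and a stromal gene sum of 4.8 CPM, against 1633 to 5816 CPM in the other libraries. At most 2 barcodes were capillary in both libraries of any pair. The Lin- library of CL replicate 2 shared 295 kept barcodes with its lineage-positive (Lin+) partner, against 42.7 if barcodes were drawn at random. How many of these belonged to its capillary cells was not counted. Values were corrected for free RNA by the authors and are often not whole, so that a gene with a single read could fall below 1; 145 of the 4060 cells held a value above 0 for Pdgfra or Ptprc, and 71 for a venous gene.

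Genes that the selection did not use are given as a description, and they followed the label in part. Rgcc, an endothelial cell cycle regulator enriched in capillaries, had a median of 2520.0 CPM in capillary cells over the 6 C57BL/6J libraries, against 754 CPM in arterial and 201 CPM in venous ECs selected on the same genes. Vwf, a venous and large vessel product, was low in capillary cells, with a median of 9.32 CPM against 1312 CPM in venous ECs, and Lrg1, a marker of venules, had medians of 213 and 3868 CPM. Other genes known from capillary ECs were no higher here than in a neighbouring class: Rbp7, a retinol-binding protein, had medians of 1493 CPM in capillary and 2640.0 CPM in arterial ECs, and Meox2, a homeobox factor, 239.6 CPM in capillary and 309.9 CPM in venous ECs. The chemokine Cxcl12 had medians of 1514 CPM in capillary and 1589 CPM in arterial ECs. Among the genes that made the selection, Gpihbp1 had medians of 4474, 1493, 369 and 10.6 CPM in capillary, arterial, venous and Pdgfra-positive stromal cells, and Car4, a surface carbonic anhydrase, 874, 115, 103 and 16.6 CPM. Plvap, which forms the diaphragms of fenestrated endothelium, was lower in capillary cells than in venous ECs, with medians of 425 and 3081 CPM. The median sum of the selecting capillary genes was 7.67 to 17.8 per cell across libraries, and 310 cells lay just inside the limit with a sum of 3 to under 4, against 301 otherwise qualifying ECs just outside it with a sum of 2 to under 3.

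**Figure D1:**
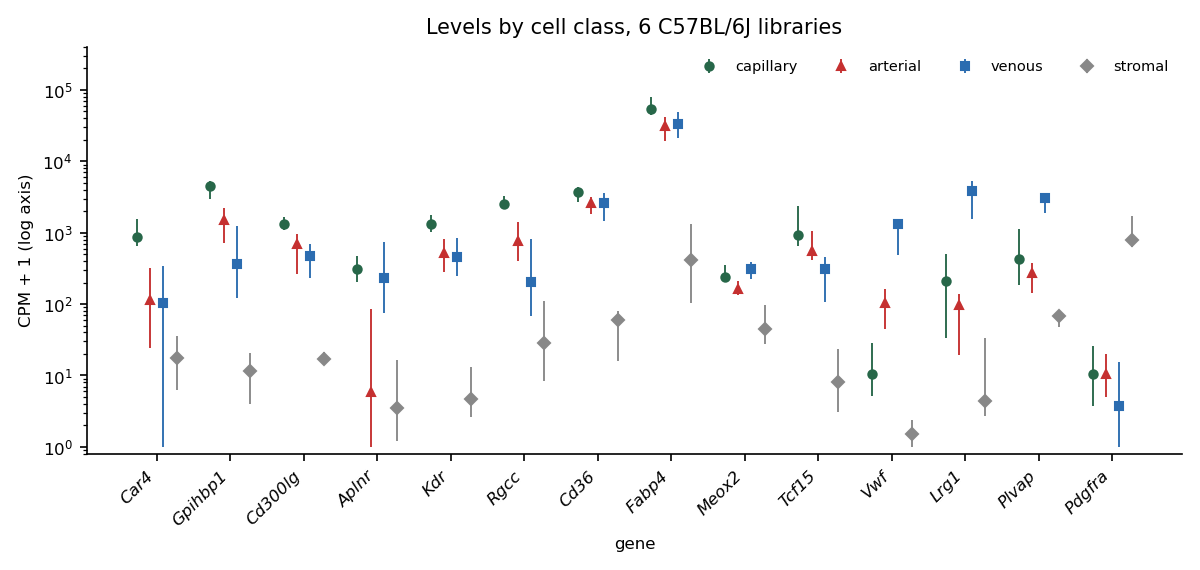
Levels of selecting and other endothelial genes in 4 cell classes, as CPM + 1 on a log axis, with the gene on the x axis. Points are medians over the 6 C57BL/6J Lin- libraries and bars run from the lowest to the highest library; Car4, Gpihbp1, Cd300lg, Aplnr and Kdr were used in the selection. Rgcc sits highest in capillary cells, and Vwf, Lrg1 and Plvap sit highest in venous cells.

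Capillary cells took up a smaller share of the recovered Lin- cells in both COLD libraries than in both RT libraries of C57BL/6J mice. The share was 13.2% in RT replicate 1 (95% Clopper-Pearson interval 12.3 to 14.2%) and 8.40% in RT replicate 2 (7.68 to 9.15%), while COLD gave 6.404% (5.92 to 6.92%) and 4.10% (3.64 to 4.61%). The difference of the means was -5.56 percentage points (5.25% ± 1.63 in COLD and 10.81% ± 3.41 in RT, SD, n = 2 each), with an exact two-sided permutation p of 0.33, which is the smallest this design can give. Adjusted over the 12 comparisons of shares, every permutation p was 1.0. CL libraries held 15.7% (15.0 to 16.4%) and 1.21% (0.956 to 1.52%), a range that contained both RT values. In the Adrb1 line the share was 1.89% in WT RT and 1.69% in WT COLD, and 6.11% in KO RT and 1.28% in KO COLD. Over both lines the COLD share was 4.04 points lower (3.37% ± 2.38 against 7.40% ± 4.73, SD, n = 4 each), with an exact two-sided permutation p of 0.2 and overlapping groups. The intervals cover counting error only.

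Among ECs alone the groups overlapped. Capillary cells made up 68.6% and 61.0% of ECs in RT, 62.3% and 45.7% in COLD, and 68.8% and 32.1% in CL. The COLD mean was 10.81 points below the RT mean (54.0% ± 11.8 against 64.8% ± 5.40, SD, n = 2 each; exact two-sided permutation p = 0.667). The Adrb1 line held 25.4% (WT RT), 31.9% (WT COLD), 32.7% (KO RT) and 19.9% (KO COLD). The limits of the selection were not scaled to a cell's total, and median totals of capillary cells ran from 992 to 2363 counts. Both kinds of share can therefore shift with depth.

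**Figure D2:**
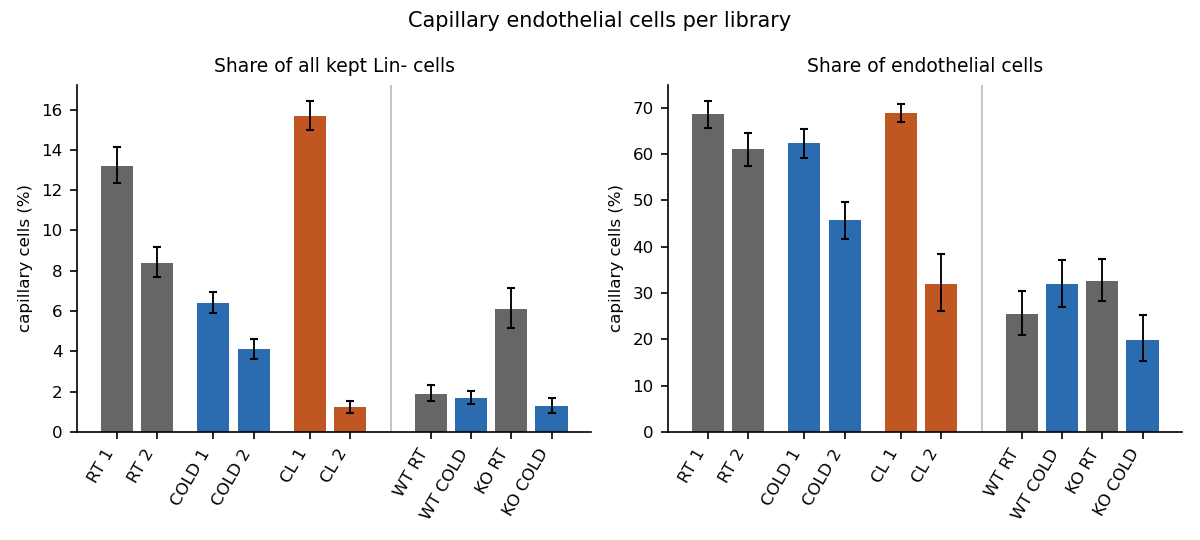
Capillary cells as a percent of all kept Lin- cells (left) and of endothelial cells (right) in each library, grey for RT, blue for COLD and orange for CL; bars are 1 library each and error bars are 95% Clopper-Pearson intervals. Both COLD bars of C57BL/6J mice are below both RT bars on the left, and the CL replicates lie apart at 15.7% and 1.21%.

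Cold changed a small set of genes in capillary cells, among them interferon response genes, the xenobiotic enzyme Cyp1a1 and the Notch target Hey1. Counts were summed over the capillary cells of each library and compared with edgeR's quasi-likelihood test over 8908 genes, with the 6 C57BL/6J libraries in one fit and Benjamini-Hochberg adjustment. At an adjusted p under 0.05, 43 genes were called (0.483% of those tested), 28 higher (0.314%) and 15 lower (0.168%) in COLD, and 1003 genes had an unadjusted p under 0.05. The number of calls moved when 1 library was left out, in fits where the lone library of a group is assumed to vary like the other groups: without COLD replicate 1 there were 7 calls, 6 of them among the 43, without COLD replicate 2 there were 26, without RT replicate 1 there were 105 and without RT replicate 2 there were 76. The study's methods tie the libraries of 1 replicate number to 1 experiment on pooled mice, so the p-values measure the spread between pools and not between animals. With the replicate number as a block, 129 genes were called (1.45%), 89 higher (0.999%) and 40 lower (0.449%), and the 43 were among them.

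Interferon response genes formed the largest named group among the genes that rose. Of 31 tested members of an interferon response list, 7 rose and 0 fell at an adjusted p under 0.05 by edgeR; before adjustment 19 passed as higher and 0 as lower, against 5.73% and 5.53% of all genes. In 24 of the 31 the lower COLD value exceeded the higher RT value (18.3% of all genes), and the median log2 fold change of the list was 0.76 against 0.01 over all genes tested. The 7 called genes were Irf7, Ifit1, Ifit2, Ifit3, Ifit3b, Usp18 and Ifi44. Irf7, the transcription factor that amplifies type I interferon induction, measured 85.3 and 139.9 CPM in RT replicates 1 and 2, 436 and 544 CPM in COLD and 166 and 154 CPM in CL. Both COLD libraries stood well above the other libraries of the strain, and the log2 fold change against RT was 2.18 ± 0.28, adjusted p = 0.0147. Ifit3, one of the tetratricopeptide proteins that bind and restrict viral RNA, went from 82.7 and 95.04 CPM in RT to 284 and 350.5 CPM in COLD (1.83 ± 0.25, adjusted p = 0.0147). Usp18, the protease that removes ISG15 and damps interferon receptor signalling, went from 39.4 and 44.4 CPM in RT to 129 and 182 CPM in COLD (1.86 ± 0.25, adjusted p = 0.0147). Ifi44 measured 19.3 and 32.98 CPM in RT and 90.8 and 96.4 CPM in COLD (1.91 ± 0.26, adjusted p = 0.0147).

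Ifit1 and Ifit2 were among the called genes as well. Ifit1 was at 92.1 and 115 CPM in RT and 328 and 338 CPM in COLD (1.70 ± 0.29, adjusted p = 0.041). Ifit2 was at 57.02 and 68.5 CPM in RT and 169 and 208 CPM in COLD (1.58 ± 0.26, adjusted p = 0.0332). Ifit3b, a close copy of Ifit3 whose reads could be shared with it, measured 16.2 and 9.19 CPM in RT and 77.1 and 75.7 CPM in COLD (2.35 ± 0.35, adjusted p = 0.0175). Isg15, the ubiquitin-like modifier, did not pass the test at 437 and 377 CPM in RT and 576 and 751 CPM in COLD. The antiviral GTPase list members Gbp4 and Irgm1 had log2 fold changes of 0.08 and 0.18. Oasl1 and Ifi204, which belong to the interferon-induced genes but not to the list, also rose: Oasl1 from 10.9 and 11.2 CPM in RT to 49.5 and 57.4 CPM in COLD (2.20 ± 0.32, adjusted p = 0.0155) and Ifi204 from 17.3 and 16.3 CPM in RT to 74.7 and 79.8 CPM in COLD (2.09 ± 0.27, adjusted p = 0.0147). Without RT replicate 2 there were 8 called members, without RT replicate 1 there were 9, without COLD replicate 1 there were 3 and without COLD replicate 2 there were 4, all of them higher.

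Some myeloid genes had higher values in COLD, mostly through COLD replicate 1. Of 10 macrophage and monocyte genes 4 could be tested and 0 were called by edgeR, while before adjustment (p under 0.05) Lyz2 and Fcer1g were higher and Apoe lower in COLD, and the median log2 fold change was 0.65. Lyz2, the myeloid lysozyme, was at 3.53 and 9.07 CPM in RT and 83.9 and 12.2 CPM in COLD, and it rose with the replicate block. Tyrobp, a signalling adaptor of myeloid cells, had 1.9 counts in RT and 24.3 in COLD, a ratio of 17.99 (95% interval 4.19 to 147, counting error only). The defining genes C1qa, C1qb, C1qc and Csf1r each stayed under 2.2 CPM in the C57BL/6J libraries. The list summed to 656 to 1817 CPM in RT and 412 to 695 CPM in COLD, most of it Apoe, and without COLD replicate 1 the median of the 3 genes then tested was -0.89. At least 2 counts over Lyz2, Tyrobp, Fcer1g, C1qa, C1qb, C1qc and Csf1r were found in 0 RT cells. COLD replicates 1 and 2 held 4 and 1 such cells, and CL replicates 1 and 2 held 5 and 0. Without such cells, a choice made after seeing the data, 7 interferon list members were called, all higher, the list median was 0.75, and 47 genes were called in all.

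The promoters of the called interferon genes are shown because these members moved together. The motif GAAANNGAA, the core of the interferon-stimulated response element, was searched on both strands in the 300 bases from 250 before to 50 after each transcription start (RefSeq, GRCm38.p6). It occurred in 8.56% of 32851 promoters of that length. Of the 7 genes, 6 had a promoter in the table, and 4 of their 7 promoters held a match: Ifit1, Ifit3, Ifit3b and Ifi44, while those of Irf7 and Ifit2 held none. Matches are in capitals, written 5′ to 3′ along the gene's strand. Ifit1 lies at chr19:34640639-34640938 (plus strand), Ifit3 at chr19:34583279-34583578 (plus strand), Ifit3b at chr19:34607707-34608006 (plus strand) and Ifi44 at chr3:151749861-151750160 (minus strand).
Ifit1: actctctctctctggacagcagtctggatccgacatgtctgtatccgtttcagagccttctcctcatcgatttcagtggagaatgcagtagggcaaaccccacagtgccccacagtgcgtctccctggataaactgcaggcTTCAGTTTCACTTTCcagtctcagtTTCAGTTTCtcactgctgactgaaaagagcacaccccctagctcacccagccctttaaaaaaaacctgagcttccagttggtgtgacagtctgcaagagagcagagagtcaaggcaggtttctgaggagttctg
Ifit3: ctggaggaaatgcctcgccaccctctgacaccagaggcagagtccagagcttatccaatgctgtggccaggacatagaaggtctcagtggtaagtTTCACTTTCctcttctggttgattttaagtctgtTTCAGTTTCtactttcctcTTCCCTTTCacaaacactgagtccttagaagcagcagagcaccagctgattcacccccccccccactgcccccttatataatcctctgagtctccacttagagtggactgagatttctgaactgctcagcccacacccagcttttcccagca
Ifit3b: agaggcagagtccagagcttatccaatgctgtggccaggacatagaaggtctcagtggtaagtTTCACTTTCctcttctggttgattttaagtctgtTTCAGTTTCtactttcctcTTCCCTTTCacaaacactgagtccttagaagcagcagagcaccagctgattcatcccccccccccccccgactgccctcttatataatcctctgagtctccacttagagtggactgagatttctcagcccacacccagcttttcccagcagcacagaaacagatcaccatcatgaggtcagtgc
Ifi44: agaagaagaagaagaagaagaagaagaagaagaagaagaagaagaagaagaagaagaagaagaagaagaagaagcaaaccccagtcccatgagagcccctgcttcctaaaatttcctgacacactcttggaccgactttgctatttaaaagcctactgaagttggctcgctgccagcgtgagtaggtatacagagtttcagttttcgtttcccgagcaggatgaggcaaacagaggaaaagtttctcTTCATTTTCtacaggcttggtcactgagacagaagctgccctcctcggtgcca
The Ifit1, Ifit3 and Ifit3b windows each held 3 matches and the Ifi44 window 1.

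**Figure D3:**
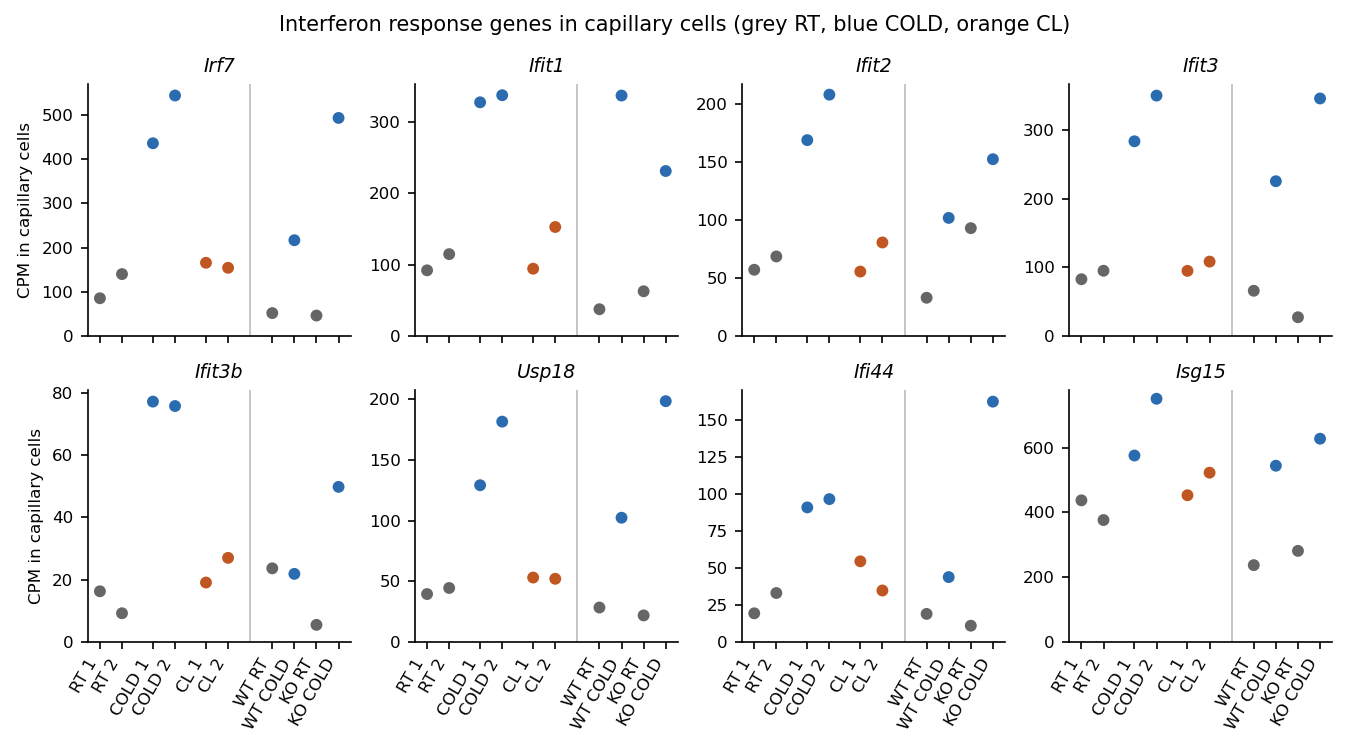
CPM of 8 interferon response genes in capillary cells on linear axes from 0, with 1 point per library (grey RT, blue COLD, orange CL; C57BL/6J left of the vertical line and the Adrb1 line right of it). In C57BL/6J mice both COLD points lie above the RT and CL points in each panel, and Isg15 is the 1 gene shown that did not pass the test.

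Beyond the interferon genes named above, the genes that rose included enzymes, receptors and a Notch target. Cyp1a1, a monooxygenase induced through the aryl hydrocarbon receptor, measured 48.8 and 107 CPM in RT, 364 and 409.8 CPM in COLD and 136 and 85.3 CPM in CL. Both COLD libraries were more than 3 times as high as either RT library, with a log2 fold change of 2.41 ± 0.30, adjusted p = 0.0147. Its promoter is shown and was searched for GCGTG on either strand, the core of the xenobiotic response element. The core was found once in the 300 bases at chr9:57697363-57697662 (plus strand), and 32.4% of all promoters held one. Whether this match is an element known to act on the gene was not examined.
Cyp1a1: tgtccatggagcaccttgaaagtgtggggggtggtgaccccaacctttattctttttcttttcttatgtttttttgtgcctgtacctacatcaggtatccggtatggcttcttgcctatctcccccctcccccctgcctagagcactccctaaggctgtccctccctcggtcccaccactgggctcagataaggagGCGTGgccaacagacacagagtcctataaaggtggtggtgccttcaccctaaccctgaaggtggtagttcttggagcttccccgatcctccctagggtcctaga
Hey1, a transcriptional repressor downstream of Notch and BMP signals, went from 40.9 and 55.7 CPM in RT to 149 and 158 CPM in COLD (1.69 ± 0.25, adjusted p = 0.0179). Ramp3, the accessory protein that tunes the adrenomedullin receptor, went from 52.4 and 60.4 CPM in RT to 123 and 165 CPM in COLD (1.34 ± 0.23, adjusted p = 0.0415). This call was lost with DESeq2 (adjusted p = 0.286), with the COLD and RT libraries alone, after thinning and when any 1 of the 6 libraries was left out, with an adjusted p of 0.0596 to 0.177 in the last case. The COLD calls of Col18a1, Tagln, Gm4951, Epor, Id4 and Col28a1 were likewise lost with DESeq2 and without RT replicate 1, COLD replicate 1 or COLD replicate 2. Of the genes checked singly for COLD against RT, DESeq2 kept 20 calls and lost 11. Thinning cells to 1000 counts kept 8 and lost 21. Fads3, of the fatty acid desaturase family, measured 13.1 and 28.2 CPM in RT and 77.8 and 104 CPM in COLD (2.28 ± 0.31, adjusted p = 0.0147). Olfr1396, an olfactory receptor gene, measured 7.84 and 7.46 CPM in RT and 100.1 and 89.5 CPM in COLD (3.53 ± 0.30, adjusted p = 0.00246). Hey1, Ramp3, Fads3 and Olfr1396 were each higher in both COLD libraries than in both CL libraries. All 28 genes that rose were higher in both COLD libraries than in both RT libraries (18.3% of all genes). They were called on these same libraries, so that separation adds no support. Gm11716, Gm4951 and Phf11b also rose, each from under 10 CPM in both RT libraries. In COLD they were at 41.7 and 33.4 CPM (Gm11716), 33.5 and 34.0 CPM (Gm4951) and 32.2 and 57.7 CPM (Phf11b). Whether any of them responds to interferon was not examined. The remaining genes that rose were Mitd1, Fmo2, Bcl2l1, Cp, Enpp2, Trib1 and Maff, with log2 fold changes from 1.30 (Mitd1) to 2.08 (Maff). Cp, the copper-carrying ferroxidase ceruloplasmin, measured 17.7 and 19.3 CPM in RT and 62.97 and 63.5 CPM in COLD. Bcl2l1, which encodes the survival protein BCL-XL, measured 41.9 and 48.8 CPM in RT and 106 and 147 CPM in COLD.

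Markers of other cell types were among the genes that rose. Elovl3, a fatty acid elongase of brown adipocytes, had 0 and 1 count in the RT libraries and 43.1 and 31.2 CPM in COLD. The ratio of the summed counts was 84.0 (95% interval 14.6 to 3388, counting error only), with an adjusted p of 0.0155 by edgeR's quasi-likelihood test. Timp1, a secreted inhibitor of matrix metalloproteinases that many stromal cells also make, went from 3.49 and 7.49 CPM in RT to 79.9 and 48.4 CPM in COLD (3.71 ± 0.50, adjusted p = 0.0147). Tagln, an actin-binding protein of contractile cells, went from 53.7 and 65.1 CPM in RT to 192 and 139 CPM in COLD (1.49 ± 0.27, adjusted p = 0.0471). Of 14 adipocyte genes 1 rose, and the median log2 fold change was 1.10. Before adjustment (p under 0.05) 6 passed as higher and 1 as lower, against 5.73% and 5.53% of all genes. The summed level was 1409 and 1048 CPM in RT and 3744 and 1730 CPM in COLD. Without COLD replicate 1, 0 of the 14 were called, 4 were higher and 2 lower before adjustment, and the median was 0.26. Without the top doublet scores it was 0.68. Adipoq, Plin1 and Elovl3 rose and Cfd fell with the replicate block. Ucp1, the uncoupling protein of brown adipocytes, was at 35.2 and 98.1 CPM in RT and 193 and 209 CPM in COLD without passing the test. Stromal gene sums were 3438 and 1685 CPM in RT and 3862 and 1633 CPM in COLD, and pericyte gene sums 713 and 1245 against 1200 and 1338 CPM. Without the cells that carried stromal or pericyte counts, 41 genes were called. Erythroid genes summed to 2838 to 21691 CPM over the C57BL/6J libraries and lymphatic genes to 11.6 to 926 CPM, while Schwann cell genes stayed at 12.0 to 20.9 CPM. What part free RNA or mixed cells have in these values was not tested.

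The 15 genes that fell in COLD included secreted or receptor genes. Nts, the neurotensin precursor, measured 305 and 237 CPM in RT, 48.9 and 33.6 CPM in COLD and 107 and 58.2 CPM in CL. Both COLD libraries lay below every other library of the strain, with a log2 fold change of -2.73 ± 0.33, adjusted p = 0.0147. Il16, a leukocyte chemoattractant, fell from 44.96 and 47.01 CPM in RT to 4.25 and 4.78 CPM in COLD (-3.36 ± 0.40, adjusted p = 0.0147). Rarres1, a retinoid-responsive membrane protein, fell from 54.2 and 84.3 CPM in RT to 7.47 and 8.01 CPM in COLD (-3.10 ± 0.35, adjusted p = 0.0147), as did Cd247, known as a T cell receptor chain, from 61.2 and 62.3 CPM in RT to 7.49 and 12.8 CPM in COLD (-2.68 ± 0.40, adjusted p = 0.0191). Trp53i11, listed here with the sprouting genes, was at 284 and 242 CPM in RT, 68.3 and 65.5 CPM in COLD and 181 and 209 CPM in CL (-1.998 ± 0.29, adjusted p = 0.0155 for COLD against RT). Epor, the erythropoietin receptor, fell from 52.6 and 60.9 CPM in RT to 19.1 and 11.03 CPM in COLD (-1.85 ± 0.32, adjusted p = 0.0415). Adh1, a dehydrogenase of alcohols and retinol, fell from 119 and 145 CPM in RT to 33.3 and 46.5 CPM in COLD (-1.74 ± 0.24, adjusted p = 0.0147). Cirbp, an RNA-binding protein first known for its induction by mild cold in cultured cells, fell from 184 and 228 CPM in RT to 53.6 and 73.3 CPM in COLD (-1.70 ± 0.23, adjusted p = 0.0147). Bok, a member of the BCL2 family, and Id4, an inhibitor of helix-loop-helix factors, had log2 fold changes of -1.74 ± 0.24 and -1.65 ± 0.29. The collagen gene Col28a1 had 51 counts in RT and 3 in COLD, a ratio of 0.0827 (95% interval 0.0165 to 0.256, counting error only). The other genes that fell were Tmem182, Ccdc88c, Plxnd1 and Sox4. Plxnd1, the semaphorin receptor that restrains vessel growth, was at 127 and 135 CPM in RT and 51.8 and 49.2 CPM in COLD. All 15 were lower in both COLD libraries than in both RT libraries (16.1% of all genes). They were called on these same libraries, so the separation adds no support.

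**Figure D4:**
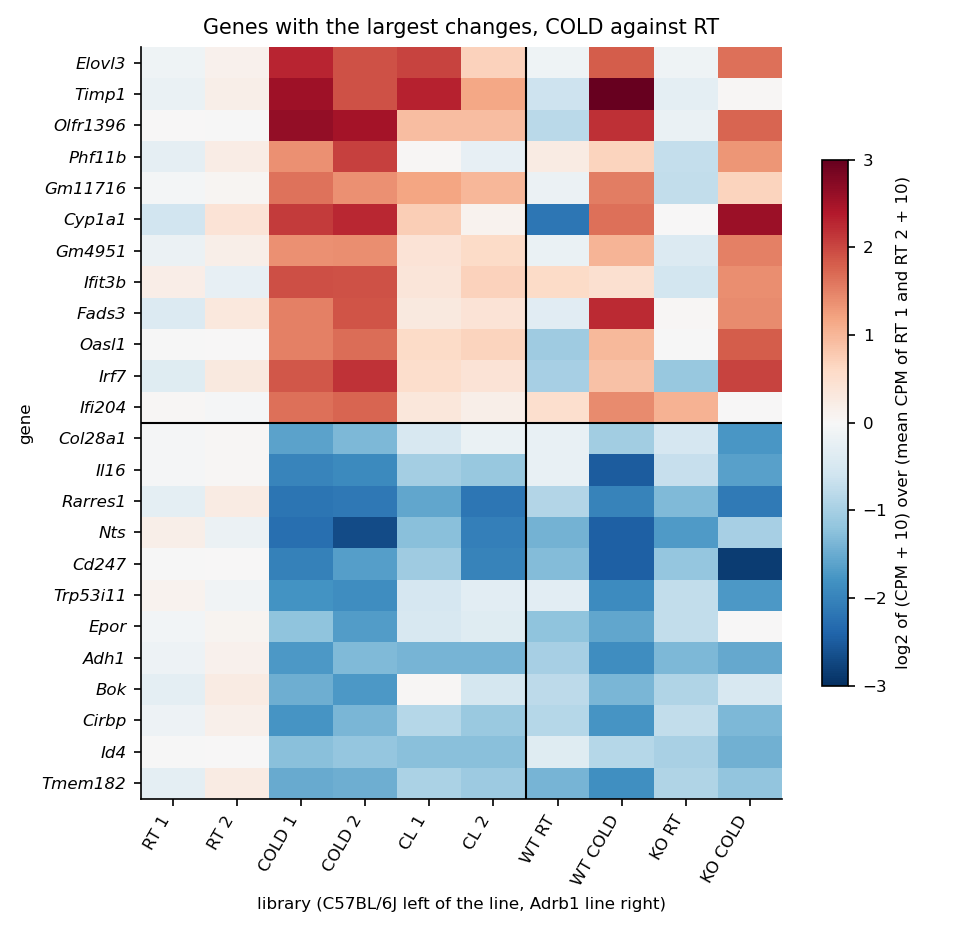
The 12 genes with the largest rise (above the horizontal line) and the 12 with the largest fall (below it) among those called in COLD against RT, by library. Colour is the log2 of (CPM + 10) over the mean of the RT libraries plus 10; libraries right of the vertical line were not used to pick the genes, and there Nts, Epor and Bok in KO COLD and Ifi204 in KO COLD run against the C57BL/6J direction relative to KO RT, as does Ifit3b in WT COLD relative to WT RT.

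Few members of the endothelial signalling lists passed the test. Of 24 genes of VEGF, angiopoietin and Notch signalling, Hey1 rose and 0 fell, with a median log2 fold change of -0.15. Flt1, a VEGF receptor, measured 874 and 1538 CPM in RT and 1214 and 1404 CPM in COLD, with overlapping groups. Dll4, the Notch ligand of sprouting endothelium, was at 143 and 167 CPM in RT and 82.9 and 79.5 CPM in COLD, both COLD libraries below RT, but did not pass (adjusted p = 0.165, edgeR). Of 20 sprouting and tip cell genes, 0 rose and Trp53i11 fell. Among 26 vascular tone and shear response genes, Ramp3 rose, and the median was 0.31. Before adjustment (p under 0.05) 6 passed as higher and 2 as lower, against 5.73% and 5.53% of all genes. Edn1, the precursor of the vasoconstrictor endothelin 1, was at 7.12 and 29.1 CPM in RT and 65.3 and 70.5 CPM in COLD (adjusted p = 0.0543, edgeR). Thbd, the thrombin-binding anticoagulant receptor, was at 124 and 222 CPM in RT and 328 and 431 CPM in COLD, and Nos3, the endothelial nitric oxide synthase, at 65.9 and 120.4 CPM in RT and 46.0 and 30.2 CPM in COLD. These 3 were chosen after their values were seen, and none passed in this fit. Edn1 rose with the replicate block, and Insig1, an inhibitor of sterol synthesis, fell. Of 14 barrier and transport genes, 0 were called, and the tight junction gene Cldn5 was at 2193 and 2533 CPM in RT and 1083 and 1046 CPM in COLD.

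Genes of leukocyte contact were mostly higher without passing the test in the fit without a block. Of 17 leukocyte adhesion and chemokine genes, 0 were called by edgeR, and the median log2 fold change was 0.80. Before adjustment (p under 0.05) 8 passed as higher and 0 as lower, against 5.73% and 5.53% of all genes. In the fit with the replicate block Vcam1, Ccl2 and Ccl7 rose, an adhesion molecule and a pair of monocyte chemokines. Cxcl12, the chemokine that retains CXCR4-bearing cells, measured 722 and 1332 CPM in RT and 1696 and 3130.4 CPM in COLD, and the groups did not overlap. Of 15 antigen presentation genes 0 were called, with 4 higher and 3 lower before adjustment (p under 0.05, 5.73% and 5.53% of all genes). The class II genes H2-Aa, H2-Ab1, H2-Eb1 and Cd74 rose and H2-Q4 fell with the replicate block. H2-D1, a class I heavy chain, was at 3531 and 2220.2 CPM in RT and 2873 and 3374 CPM in COLD. Of 14 glucocorticoid and metallothionein genes 0 were called, with a median of 0.58. At an unadjusted p under 0.05, 5 were higher (5.73% of all genes). Sgk1, a kinase induced by glucocorticoids, was at 624 and 755 CPM in RT and 1469.7 and 1375 CPM in COLD. Of 20 immediate early and heat shock genes 0 were called, and the RT replicates themselves were far apart, as for Fos at 3364 and 876 CPM. Zbtb16 of the glucocorticoid list rose and Hspa1b of the heat shock genes fell with the block.

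Genes of fatty acid uptake and binding did not pass the test in either treatment. Of 25 tested genes of fatty acid uptake and binding, 0 were called in COLD or CL. In COLD 2 were higher and 2 lower before adjustment (p under 0.05, 5.73% and 5.53% of all genes). The median log2 fold change in COLD was 0.12. Cd36, the fatty acid translocase, measured 2698 and 4049 CPM in RT, 3851 and 4312 CPM in COLD and 3536 and 3433 CPM in CL. Fabp4, the fatty acid chaperone shared by capillary cells and adipocytes, was at 45166 and 79401 CPM in RT, 54829.6 and 57077 CPM in COLD and 45090.4 and 52056 CPM in CL. Its log2 fold change was -0.11 ± 0.91 in COLD; the RT values overlapped those of COLD and of CL, and both COLD values lay above both CL values. In the correction for free RNA the authors set Fabp4 and Car3 as non-expressed genes, which bears on the level of Fabp4 in these cells. Gpihbp1, used in the selection, was at 3902 and 5230.4 CPM in RT, 5045 and 5350.2 CPM in COLD and 3552 and 2923 CPM in CL. Of 16 sterol synthesis and uptake genes 0 were called in COLD, and the median was -0.46. At an unadjusted p under 0.05, 5 were lower and 0 higher (5.53% and 5.73% of all genes). Insig1 fell with the replicate block. Hmgcs1, an early enzyme of the pathway, was at 53.3 and 44.8 CPM in RT and 44.8 and 56.1 CPM in COLD. Of 20 nuclear genes of mitochondrial respiration 0 were called, with a median of -0.20. Among 20 pan-endothelial genes 0 were called, and among 18 zonation genes outside the selection Hey1 alone was. The zonation list spans arterial, capillary and venous genes. Hey1 was highest in arterial ECs, with medians of 64.5, 320 and 4.94 CPM in capillary, arterial and venous ECs. Lrg1 and Vcam1 of the zonation genes rose with the replicate block.

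In CL, the genes that passed the test were a collagen and a membrane protein. By edgeR's quasi-likelihood test, 2 of 8908 genes (0.0225%) passed, both higher, and 881 had an unadjusted p under 0.05. With the replicate block 32 passed (0.359%), 24 higher (0.269%) and 8 lower (0.0898%), the 2 among them. Col18a1, the basement membrane collagen that is the source of endostatin, measured 7.62 and 10.5 CPM in RT, 36.7 and 31.9 CPM in COLD and 73.8 and 64.5 CPM in CL. It rose in both treatments, with log2 fold changes of 3.01 ± 0.29, adjusted p = 0.00546 in CL and 1.89 ± 0.32, adjusted p = 0.0415 in COLD. Tmem252, a small transmembrane protein, measured 19.8 and 14.9 CPM in RT and 139.6 and 100.2 CPM in CL (2.79 ± 0.27, adjusted p = 0.00546). Both calls were lost after thinning cells to 1000 counts, with log2 fold changes of 2.06 (Col18a1, adjusted p = 0.526, edgeR) and 2.19 (Tmem252, adjusted p = 0.0608, edgeR), where 3 other genes were called. Leaving out 1 library gave 0 to 205 calls: 205 without RT replicate 1, 16 without CL replicate 2, 14 without COLD replicate 2, 9 without COLD replicate 1, 8 without RT replicate 2 and 0 without CL replicate 1. Interferon list members did not pass in CL, with 0 of 31 called and a median of 0.12. Before adjustment 2 were higher and 3 lower, against 5.21% and 4.68% of all genes. Of 16 sterol genes 0 were called in CL, with 6 lower before adjustment and a median of -0.69. The adipocyte list had 0 of 14 called and 11 higher before adjustment (5.21% of all genes), and summed to 2637 and 731 CPM. Without CL replicate 1 the adipocyte list had 2 of 14 higher before adjustment, and its median turned from 1.85 to -0.41. With the replicate block Scd1, Fasn and Elovl3 of this list rose in CL. Of 23 basement membrane and matrix genes, Col18a1 rose in CL, and the median was 0.69 (0.42 in COLD, where Timp1 and Col18a1 rose). In CL 6 passed as higher and 0 as lower before adjustment (p under 0.05), against 5.21% and 4.68% of all genes. RT replicate 2 was low for this list: Sparc, a matrix glycoprotein, was at 2905 and 529.8 CPM in RT, 3669.9 and 3934 CPM in COLD and 3132 and 4606 CPM in CL. Without RT replicate 2 the matrix list median was 0.209 in CL and -0.0101 in COLD, where 11 of 24 genes lay above 0, and without RT replicate 1 it was 1.54 in CL and 1.28 in COLD. Timp1 rose in CL with the block.

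Cell cycle genes were higher in CL as a group, none of them past the adjusted threshold. Of 28 tested cell cycle genes 0 were called by edgeR, 22 passed as higher and 0 as lower before adjustment (5.21% and 4.68% of all genes), while in 24 both CL libraries lay above both RT libraries (12.2% of all genes). The median log2 fold change was 1.57, against 0.28 in COLD, where 3 were higher and 1 lower before adjustment (5.73% and 5.53% of all genes). The direction in COLD turned with single libraries: the cell cycle median was 2.68 without RT replicate 1, with 1 gene called and 13 higher before adjustment, -0.16 without RT replicate 2, with 4 lower, and -0.13 without COLD replicate 1. Without the top doublet scores it was -0.23. In CL it was 4.32 without RT replicate 1, with 12 genes called. Without a filter on low counts 17 of 30 cell cycle genes were called in CL, and after thinning cells to 1000 counts 9 could be tested, 0 were called, 3 were higher before adjustment and the median was 0.69. Of 6 erythroid genes, 6 had a log2 fold change above 0 in CL with a median of 1.66, 2 were higher before adjustment, and they summed to 5847 and 2838 CPM in RT and 4943 and 21691 CPM in CL. Without cells over the limit of 1% erythroid counts the cell cycle median in CL was 1.58, with 22 of 28 higher before adjustment. Birc5, the mitotic survival protein survivin, was at 15.7 and 0 CPM in RT, 56.8 and 21.9 CPM in COLD and 87.8 and 173 CPM in CL, and Cdk1, the mitotic kinase, at 17.5 and 0 CPM in RT, 19.2 and 23.5 CPM in COLD and 60.2 and 80.5 CPM in CL. Both were chosen after their values were seen. The more abundant H2afz, a histone variant, was at 434 and 199.8 CPM in RT and 589 and 766 CPM in CL, and Tuba1b, a tubulin, at 503 and 334 CPM in RT and 390.4 and 572 CPM in CL, overlapping. RT replicate 2 was at 0 for 12 of the 28 genes, and without it 16 of 29 tested genes were higher at an unadjusted p under 0.05 with a median of 1.03. Without CL replicate 2, which held 75 cells, 15 of 28 were higher and 1 lower with a median of 1.21, and without cells carrying stromal or pericyte counts 8 of 21 were, with a median of 0.98.

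The share of single cells with cell cycle counts did not separate either treatment from RT. After thinning each cell to 1000 counts, the share of capillary cells with at least 3 counts of the list was 14.1% and 12.0% in RT, 11.4% and 12.1% in COLD, and 13.3% and 21.2% in CL. The CL mean was 4.18 points above the RT mean (exact two-sided permutation p = 0.667, smallest possible 0.33) with overlapping groups, and the COLD mean 1.33 points below it (p = 0.667, exact permutation test). Both COLD libraries lay below both CL libraries, with a difference of the means of -5.51 points (exact two-sided permutation p = 0.33, the smallest possible). Thinning left out 42 and 238 shallower cells in RT, 211 and 18 in COLD, and 549 and 9 in CL. Unthinned shares were 31.3% and 9.13%, 13.1% and 29.1%, and 15.2% and 38.7%. Stromal cells of the same libraries, thinned alike, were at 5.01% and 3.76% in RT, 24.1% and 13.0% in COLD, and 14.1% and 4.21% in CL. In the Adrb1 line the capillary share was 3.61% in WT RT, 14.9% in WT COLD, 5.11% in KO RT and 19.6% in KO COLD. These came from 46 to 137 cells each, and the RT libraries there had the other kit. Over both lines the COLD share was 5.76 points higher (14.5% ± 3.70 against 8.72% ± 5.14, SD, n = 4 each). The groups overlapped, with an exact two-sided permutation p of 0.143.

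**Figure D5:**
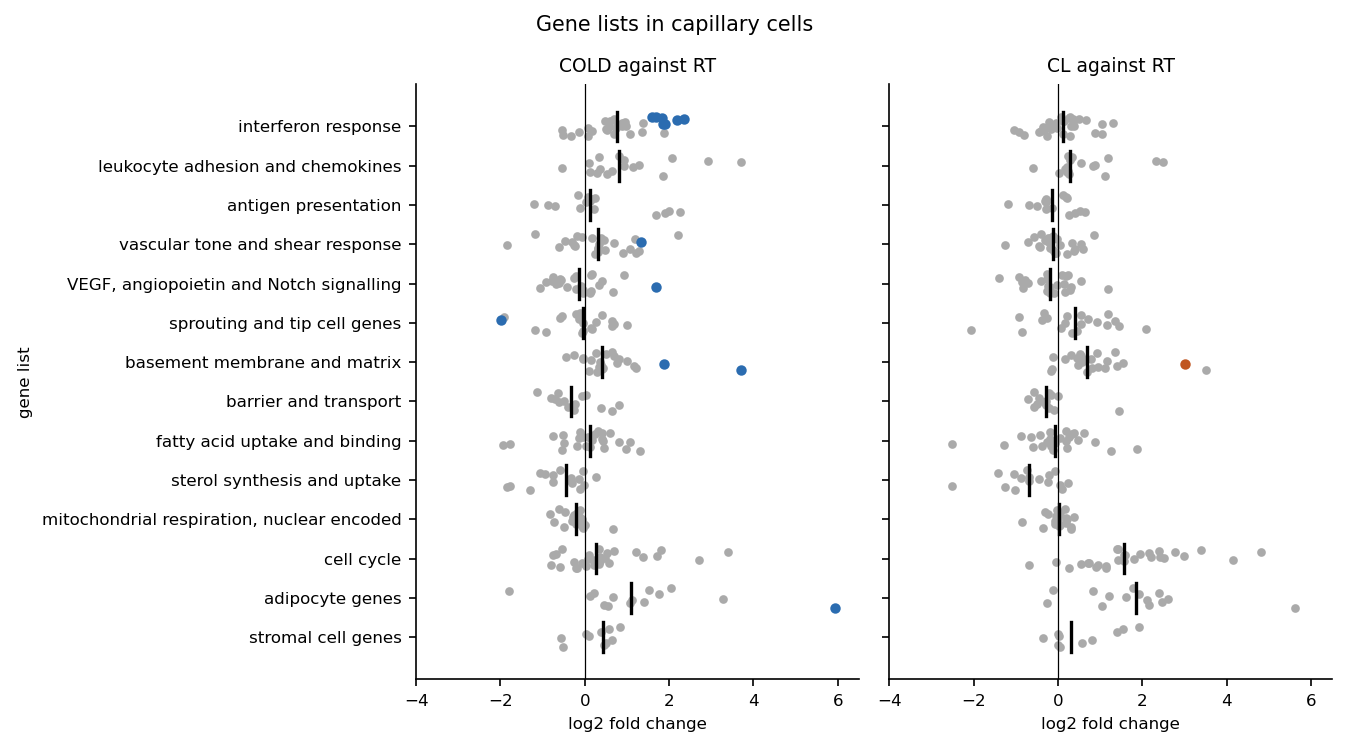
Log2 fold change of each tested gene of 14 lists (x axis) in COLD against RT (left) and CL against RT (right), with the list on the y axis. Coloured points passed an adjusted p of 0.05 in edgeR's quasi-likelihood test without a block, grey points did not, and vertical bars are list medians; the interferon list is shifted in COLD (median 0.76) and the cell cycle list in CL (median 1.57).

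Set directly against each other, COLD and CL differed in 5 of 8908 genes (0.0561%, edgeR). Before adjustment 664 had a p under 0.05, 357 higher in COLD and 307 lower. Of 31 interferon list genes 0 were called, 19 were higher and 0 lower before adjustment, and the median was 0.77. Of 28 cell cycle genes 0 were called, 15 were lower and 0 higher before adjustment, and the median was -1.37. Among the 5 called genes, Olfr1396 and Ramp3 were higher in COLD, and Prcp and Mest lower. Ramp3 was at 123 and 165 CPM in COLD and 33.5 and 31.0 CPM in CL (2.05 ± 0.26, adjusted p = 0.0424), and Olfr1396 at 100.1 and 89.5 CPM in COLD and 23.6 and 23.3 CPM in CL (1.95 ± 0.26, adjusted p = 0.0424). Mest, an imprinted hydrolase, was at 23.7 and 14.3 CPM in COLD and 141 and 99.3 CPM in CL (-2.77 ± 0.38, adjusted p = 0.0424), with RT between them at 49.9 and 28.4 CPM. Prcp, a carboxypeptidase that acts on angiotensin and kallikrein, was at 59.7 and 61.0 CPM in COLD and 227 and 179 CPM in CL (-1.87 ± 0.26, adjusted p = 0.0424). The fifth, Ccl21a, is a chemokine of lymphatic endothelium, and it was listed at 0 in both CL libraries and at 247 and 703 CPM in COLD, at least 385-fold higher against a floor of 3 counts over the CL libraries. Of the 669.5 counts in COLD, 227.9 and 436.8 lay in the 2 and 4 cells of each library that carried at least 3 counts of lymphatic genes, so a few lymphatic-like cells that met the selection held nearly all of it. With the replicate block 23 genes were called (0.258%), 18 higher in COLD (0.202%) and 5 lower (0.0561%), the 5 among them, and Ifit2, Ifit3, Usp18 and Hey1 were among the 18. The count of 5 was 0 with another size factor method, 1 after thinning, 0 without CL replicate 1, 1 without CL replicate 2, 3 without COLD replicate 2, 26 without RT replicate 1 and 29 without RT replicate 2.

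The Adrb1 line gave a second look at the cold, with 1 library per genotype and temperature and no test. The targeted gene was checked first, in Pdgfra-positive stromal cells. Adrb1 had 10.0 counts in WT RT (1.97 CPM) and 39.3 in WT COLD (4.7 CPM). KO RT had 1.0 count (0.701 CPM) and KO COLD 0. In KO RT 3 counts would be 2.15 CPM, above the WT RT level, so the RT pair cannot show a loss. In KO COLD 3 counts would be 1.06 CPM. In capillary cells Adrb1 had at most 2 counts in any library of the line. Of the 43 genes called in C57BL/6J mice, 35 moved in the same direction in both WT and KO, against 42.2% of all genes. In WT, 25 of the 28 that rose and 15 of the 15 that fell did so (65.8% and 52.6% of all genes with that direction), and in KO 26 of 28 and 12 of 15 (63.7% and 52.2%). Irf7 was at 51.7 CPM in WT RT and 217 CPM in WT COLD, and at 46.1 CPM in KO RT and 493 CPM in KO COLD. Cyp1a1 went from 9.46 to 267 CPM in WT and from 79.2 to 507 CPM in KO, and Hey1 from 28.3 to 141 and from 38.2 to 193 CPM. Timp1 measured 0 CPM in WT RT and 124 CPM in WT COLD, and 2.68 CPM in KO RT and 5.89 CPM in KO COLD. Tagln measured 16.5 and 178 CPM in the WT libraries and 19.9 and 9.52 CPM in the KO libraries, in the same order. Whether the genotypes differ could not be tested with 1 library each, and KO COLD is the library in which stromal genes were nearly absent.

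Fitting the 4 RT and 4 COLD libraries of both lines together, with the line as a covariate, called 259 of 6863 genes (3.77%; edgeR), 123 higher (1.79%) and 136 lower (1.98%), and 33 of the 43 genes were among them. This fit holds the kit difference of the Adrb1 line inside its cold effect. The interferon list had 13 of 30 tested genes higher and 0 lower, with Rsad2, Oasl2, Rtp4, Gbp3, Zbp1 and Xaf1 joining the 7 named above. Among vascular tone genes Edn1, Thbd, Ramp3, Eng and Smad6 rose and Nos3 and Insig1 fell. Dll4, which had not passed in C57BL/6J mice alone, fell with -0.83 ± 0.18 (adjusted p = 0.0236, edgeR). Genes of other cell types passed too: Adipoq, Ucp1, Elovl3 and Tagln rose and Apoe fell, with 1.52 ± 0.28 (adjusted p = 0.00909, edgeR) for Ucp1. Edn1 had a log2 fold change of 2.03 ± 0.31 (adjusted p = 0.00429, edgeR) there and was at 23.5 and 128 CPM in WT and 35.4 and 112 CPM in KO, while Nos3 had -1.12 ± 0.23 (adjusted p = 0.0183, edgeR). Eng, the endothelial co-receptor for BMP9, had 1.55 ± 0.28 (adjusted p = 0.00902, edgeR), and Smad6, an inhibitor of BMP signalling, 1.51 ± 0.31 (adjusted p = 0.0189, edgeR). Of leukocyte adhesion genes Icam1 and Vcam1 rose, and of antigen presentation genes H2-Q4, H2-Q6 and H2-Q7 fell. Aplnr, which was used in the selection, was at 318 and 452 CPM in RT and 201 and 209.6 CPM in COLD in C57BL/6J mice, and is given as a description.

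Responses of capillary cells were then set against those of other cells of the same libraries, by testing the class by treatment term with library as a block. Against arterial ECs, 2 of 8992 genes differed in their cold response (0.0222%), and against venous ECs 5 of 5341 (0.0936%). No interferon list member was among them, of 31 tested against arterial ECs, where the list's median difference was 0.03 on the log2 scale, or of 30 tested against venous ECs, where it was 0.35. Irf7 was at 150.4 and 211 CPM in RT and 651 and 493 CPM in COLD in arterial ECs, a difference in response of 0.39 ± 0.33 (log2, SE). The 5 genes against venous ECs were Tagln and the class II antigen presentation genes Cd74, H2-Aa, H2-Ab1 and H2-Eb1. Cd74, the invariant chain, was at 83.1 and 27.8 CPM in RT and 273 and 145 CPM in COLD in capillary cells and at 1070.1 and 300.2 CPM in RT and 137 and 0 CPM in COLD in venous ECs, of which there were 18 to 39 per library. Without RT replicate 1 the 5 venous calls became 0 and without CL replicate 1 they became 26. For CL, Col18a1 differed between capillary and arterial ECs by 2.30 ± 0.35 (log2, SE; adjusted p = 0.0232, edgeR): arterial ECs held 115 and 133 CPM in RT and 189 and 203 CPM in CL. It was 1 of 4 genes called there (0.0445%), and against venous ECs 2 genes were called in CL (0.0374%), Cd74 and Vcam1.

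More genes were called against Pdgfra-positive stromal cells, in fits with unequal numbers of cells. There were 266 to 1437 stromal cells per library, 100 to 241 arterial ECs and 18 to 39 venous ECs. The counts therefore do not rank the size of the responses. Against stromal cells, 385 of 11175 genes (3.45%) differed in their cold response. The count moved when 1 library was left out, with 12 without RT replicate 1, 154 without COLD replicate 1, 233 without RT replicate 2 and 717 without CL replicate 2. Of 33 interferon list genes, 12 had a lower response in capillary cells and 0 a higher one, with a median difference of -1.14. Stromal cells started lower: Irf7 was at 22.6 and 51.8 CPM in RT and 409 and 433 CPM in COLD there, against 85.3 and 139.9 CPM in RT and 436 and 544 CPM in COLD in capillary cells (difference -1.57 ± 0.31, adjusted p = 0.0103, edgeR). Bst2, the virus tether, went from 171 and 162 CPM in RT to 1369 and 1485 CPM in COLD in stromal cells and from 906 and 968 CPM in RT to 1504 and 1945 CPM in COLD in capillary cells. Of 30 cell cycle genes, 11 had a lower cold response in capillary than in stromal cells and 0 a higher one. Top2a, the mitotic topoisomerase, was at 18.5 and 0 CPM in RT and 159 and 79.6 CPM in COLD in stromal cells and at 31.9 and 1.74 CPM in RT and 14.7 and 16.96 CPM in COLD in capillary cells. Of 21 sterol genes, 7 had a higher response in capillary cells: Hmgcs1 was at 204 and 102 CPM in RT and 40.7 and 37.6 CPM in COLD in stromal cells, and at 53.3 and 44.8 CPM in RT and 44.8 and 56.1 CPM in COLD in capillary cells. Edn1, Eng and Thbd were among the vascular tone genes with a higher response in capillary cells.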

How the data were processed

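Single-cell libraries from 10 pools of iBAT were split by magnetic beads into Lin- and Lin+ fractions, giving 20 libraries, and the 10 Lin- libraries were used here. The authors aligned and counted with Cell Ranger (v3.0.1; mm10 in the submitters' notes) and removed cell-free RNA with SoupX, with Fabp4 and Car3 set as non-expressed genes, so the deposited values are expected counts that need not be whole. Cells were gated on the sums named in the report, and the corrected counts were added over the capillary cells of each library, rounded, and tested with edgeR (v4.0.16; TMM, filterByExpr, quasi-likelihood, Benjamini-Hochberg) in R (v4.3.3). Replicates differed by more than counting error (chi-square per degree of freedom 14.4 in RT, 3.43 in COLD and 5.43 in CL), so the spread between pools sets the precision. The study's methods merge libraries of the same replicate experiment, so the replicate numbers pair the libraries. The fit with the replicate number as a block is given for some of the calls it changed, not for all. Deviations of same-numbered libraries correlated by 0.141 (RT and COLD), -0.0913 (RT and CL) and 0.172 (COLD and CL). Shares were compared by exact permutation (scipy v1.17.1). Cell classes were compared with library as a block and a class by treatment term.

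The members and gene lists were chosen with earlier results of these data known. Genes were named when called, with a mean of at least 10 CPM and both treated libraries on 1 side of both RT libraries, taking the 12 largest in each direction, and from each list up to 4 called members or else the 2 most abundant. Other genes named were chosen after their values were seen. These included the remaining called genes, Isg15, Vwf, Plvap, C1qa, C1qb, C1qc, Csf1r, Dll4, Edn1, Thbd, Nos3, Sparc, Gbp4, Irgm1, Birc5, Cdk1, Hmgcs1, Smad6, Eng, Ucp1, Rbp7, Meox2, Lyz2, Fcer1g, Apoe, Tyrobp, those that only the block called and those of the class comparison and the fit over both lines. On simulated data the COLD against RT test, run on 8626 genes, recovered 24.7% of 2-fold and 89.7% of 4-fold changes. The CL against RT test, run on 8536 genes, recovered 16.5% and 78.1%. Of the 121 simulated calls for COLD, 10 were genes left unchanged, and of the 99 for CL, 8 were. Doublets were not removed in the main comparison; an alternative left out the top 6% of Scrublet scores (scanpy v1.11.5). Other alternatives were DESeq2 (v1.42.0), its size factors, no count filter, thinning to 1000 counts per cell, a replicate block, other gates and leaving out each library; leaving out cells with lymphatic, stromal, pericyte or macrophage counts was added after seeing the data.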

Additional observations from a re-analysis of the deposited data

Results flagged for a closer look

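Responses that differed between capillary cells and another class of the same libraries were tested as a class by treatment term with edgeR. For COLD, 5 genes differed from venous ECs, 2 from arterial ECs and 385 from Pdgfra-positive stromal cells. For CL the numbers were 2, 4 and 33. The 2 genes against arterial ECs in COLD were Car3, an adipocyte carbonic anhydrase used in the correction for free RNA, and Fxyd6, a regulator of the sodium pump. The 4 genes in CL were Col18a1, higher in capillary cells, and Ccl21a, Chchd10 and Cd74, lower. Vcam1, the leukocyte adhesion molecule, and Cd74 differed from venous ECs in CL.

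The Lin+ libraries, which enter no comparison of the report, also held cells that met the capillary selection: 447 of 50204 kept cells, or 0.890% (95% Clopper-Pearson interval 0.810 to 0.976%), with 0.142 to 3.38% per library. No control sample applies to this count; a library with 0 such cells would allow a share of up to 0.0366% (3 cells of the largest Lin+ library).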

How the results depend on the processing

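With 2 libraries per group, recovery of 2-fold changes was low on simulated data. Checks of single named genes kept direction and call in 552 cases and direction alone in 154, with 0 reversed. Counts and shares were labelled the same in 130 cases, moved in 64 and reversed in 9. For shares with 2 libraries per group, the label followed the sign of the difference and not its size. The CL against RT difference among Lin- cells was -2.36 points, and leaving out 1 library took it as low as -9.60 points. For COLD against RT (43 calls) DESeq2 gave 24, the 2 groups alone 28, thinned cells 12, no filter on low counts 360 and 8 libraries 259. For CL against RT (2) they gave 12 (DESeq2), 7 (2 groups alone) and 264 (no filter), and leaving out the top doublet scores gave 6. For COLD against CL (5) DESeq2's size factors gave 0, no filter 160, the 2 groups alone 14, thinning 1, no top doublet scores 14, no erythroid-rich cells 8 and no stromal or pericyte cells 11. With thinned cells the class comparison gave 1 (venous, COLD), 0 (venous, CL) and 6 (arterial, COLD). The cell cycle share difference turned to 0.895 points without thinning (COLD against RT) and to -0.853 points with at least 2 counts (CL against RT). The causes were not tested.

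The fit with a replicate block called 129 genes for COLD against RT, 32 for CL against RT and 23 for COLD against CL. Every gene called without the block was called with it. For COLD against RT, Zbp1 joined the interferon list members called, 8 of 31 with the block. Nnat and Saa3 also rose there, with log2 fold changes of 4.56 and 6.59. For CL against RT, Saa3, Lrg1, Ccl2 and Col1a1 rose and Igfbp3 and Ccl21a fell with the block. Further genes that only the block called are not named.

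Leaving out each library in turn gave 7 to 105 calls for COLD against RT, 0 to 205 for CL against RT and 0 to 29 for COLD against CL. Class comparisons ranged over 0 to 26 (venous), 1 to 40 (arterial) and 12 to 717 (stromal) for COLD, and 0 to 24, 1 to 14 and 1 to 125 for CL. Share differences among Lin- cells ranged over -7.97 to -3.14 points (COLD against RT), -9.60 to 4.88 (CL against RT), -10.4 to 4.04 (COLD against CL) and -5.87 to -2.10 (4 against 4). Among ECs they ranged over -19.1 to -2.48, -32.8 to 4.01, -14.8 to 21.96 and -14.4 to 0.260, and for cell cycle counts over -2.39 to -0.272, 0.217 to 8.14, -9.47 to -1.55 and 4.06 to 7.56. Share comparisons with 1 library in a group give a value and no test.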
